A study of Mus musculus with 2 samples.

Results

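The transcription factors that direct myeloid lineage choice were followed in GR-1+ cells of mouse breast tumors by single-cell RNA sequencing. The set holds 9 genes chosen by symbol: Spi1, Irf8, Irf5, Cebpa, Cebpb, Cebpd, Cebpe, Maf and Gfi1. Of these, 8 were found among the 28692 genes of both libraries, and Cebpd was not analysed here.

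The tumors grew from 4T1, a triple-negative mammary carcinoma line, in the mammary fat pad of female BALB/c mice aged 8 to 10 weeks. 4T1p is the parental line and resists checkpoint blockade, whereas 4T1m is a polyclonal population made from it with the mutagen MNNG and responds to anti-PD1. Mice of both groups received anti-PD1 for 2 weeks, and GR-1+ cells, a mixture of Ly6C- and Ly6G-bearing cells, were then taken from the dissociated tumors by magnetic selection. There was 1 library per tumor type, how many mice entered each is not given in the sources used here, and IgG-treated tumors were not analysed here. All differences between the tumor types therefore lack a replicate check and have no p-value, and every interval given is a 95% interval that covers counting error only. The per-barcode depth that the study lists for each tumor type matched the file of the other type, so the libraries are named by the labels of their files, and the direction of each difference between them rests on those labels. Whether the labels were exchanged was not settled here, and if they were, every such direction is the opposite.

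In textbook accounts, PU.1 (encoded by Spi1) and the C/EBP family open the myeloid program. IRF8 then favors monocytes and dendritic cells and restrains neutrophils, C/EBPα is needed to form granulocyte-monocyte progenitors, C/EBPβ drives emergency granulopoiesis and inflammatory gene expression, and C/EBPε is needed for the secondary granules of neutrophils. IRF5 induces inflammatory cytokines in macrophages, c-Maf (encoded by Maf) marks resident-like macrophages and promotes Il10, and GFI1 represses monocyte genes in neutrophil precursors.

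The promoters of the 4 members with a RefSeq promoter entry and the most unequal levels between the lineages are shown, since the levels below are transcript counts of these genes. They are the 250 bases upstream of the gene start, 5′ to 3′ on the plus strand, in GRCm38.p6 as given by RefSeq. The window of Irf8 lies at chr8:120736108-120736357, Irf5 at chr6:29526375-29526624, Cebpa at chr7:35119043-35119292 and Cebpb at chr2:167688665-167688914. Capitals mark motif matches.
Irf8: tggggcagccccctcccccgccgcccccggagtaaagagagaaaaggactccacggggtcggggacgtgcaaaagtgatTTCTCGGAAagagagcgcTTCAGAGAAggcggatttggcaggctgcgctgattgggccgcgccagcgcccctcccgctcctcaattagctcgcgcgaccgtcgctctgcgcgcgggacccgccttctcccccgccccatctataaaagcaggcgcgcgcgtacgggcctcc
Irf5: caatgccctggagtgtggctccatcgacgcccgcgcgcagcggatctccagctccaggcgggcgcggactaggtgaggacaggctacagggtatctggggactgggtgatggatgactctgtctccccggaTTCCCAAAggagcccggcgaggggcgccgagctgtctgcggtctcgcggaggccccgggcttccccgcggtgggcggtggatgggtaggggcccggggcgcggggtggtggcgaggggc
Cebpa: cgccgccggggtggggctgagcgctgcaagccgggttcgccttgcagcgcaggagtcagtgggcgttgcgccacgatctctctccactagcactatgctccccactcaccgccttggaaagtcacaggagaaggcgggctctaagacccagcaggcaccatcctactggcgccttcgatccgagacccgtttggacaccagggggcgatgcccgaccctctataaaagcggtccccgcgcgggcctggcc
Cebpb: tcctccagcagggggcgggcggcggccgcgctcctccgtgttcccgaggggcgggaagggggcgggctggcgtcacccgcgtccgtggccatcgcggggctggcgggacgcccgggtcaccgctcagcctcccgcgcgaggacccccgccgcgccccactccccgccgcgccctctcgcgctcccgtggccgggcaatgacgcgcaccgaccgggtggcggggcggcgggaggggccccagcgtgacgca

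Both strands were searched for 4 motifs. The Irf8 window shown held a pair of matches to the interferon-γ activated site TTCNNNGAA, 171 to 163 and 153 to 145 bases before the start, a motif found in 7.02% of 32851 promoter windows of the same length. The Irf5 window held 1 match on the minus strand to the C/EBP motif TTNNGNAA, 119 to 112 bases before the start (36.8% of windows). No window of these 4 genes held the PU.1 motif GAGGAAGT (2.44% of windows) or the ETS-IRF composite element (2.30%), and those of Cebpa and Cebpb held no match to any of the 4. All 4 windows shown were rich in G and C, from 66.4% in Cebpa to 81.6% in Cebpb, against a median of 52.4% over all windows. A match describes letters only. Irf8 had a second window in the table, at chr8:120738389-120738638, with 54% G and C and no match to the motifs. Of the 9 members, 5 had a promoter entry, the fifth being Gfi1; Spi1, Cebpe and Maf had none.

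Of 4390 barcodes, 3220 were kept (1128 labelled 4T1p and 2092 labelled 4T1m), with 250 to 5000 detected genes, at most 27000 unique molecular identifiers (UMIs, 1 per captured transcript) and at most 12.5% mitochondrial UMIs. The libraries shared 0 barcodes. Cells were clustered without the members and without 54 other transcription factors, and lineages were named from marker lists. The monocytic-like class held 809 cells labelled 4T1p and 818 labelled 4T1m, and the granulocytic-like class 239 and 990. The 9 monocytic markers, among them Csf1r, Apoe and C1qa, summed to 26326 and 14590 CPM (UMIs of a gene per 1e+06 UMIs of the group) in monocytic-like cells, against 780.2 and 569.5 in the granulocytic-like class. The 8 granulocytic markers, led by S100a8 and S100a9, summed to 330.9 and 621.9 against 163774 and 166004. Since the lineages were named from these marker lists, the sums describe the classes and are no separate check of the names. Markers of B, T and NK cells, dendritic cells, fibroblasts and carcinoma cells summed to at most 26.99 CPM in either class, and endothelial markers to between 21.9 and 35.9 CPM. Erythroid markers summed to 12.7 CPM (4T1p) and 1684 CPM (4T1m) in the monocytic-like class and to 23.5 and 461.2 CPM in the granulocytic-like class, and their part in the differences between the libraries was not tested. Depth also differed: monocytic-like cells had a median of 1737 UMIs in the library labelled 4T1p and 6228 in that labelled 4T1m, granulocytic-like cells 2808 and 2530.5. Of the kept cells, 2093 had a UMI of the leukocyte gene Ptprc, and cells without one were kept unless stated.

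Lineage divided the members. Irf8, Maf, Cebpa and Irf5 were at least 2-fold higher in monocytic-like cells in both libraries, Cebpb was over 4-fold higher in granulocytic-like cells in both, and Spi1 differed by less than 2-fold. That is 4 of the 6 members with at least 20 UMIs over the 2 lineages in each library, beside 41.6% of all 8991 genes tested in this direction, and 1 of 6 in the other, beside 8.11%. By library, 44.6% of genes tested were called higher and 11.4% lower in that labelled 4T1p (56% either way), and 56% higher and 10.5% lower in that labelled 4T1m (66.5% either way). The median log2 ratio of monocytic-like over granulocytic-like levels was 2.55 over 6 tested members in the library labelled 4T1p and 3.03 over 7 in that labelled 4T1m, where the medians of all genes were 0.81 and 1.30. Most genes thus leaned to the monocytic-like side on this scale, and the members are to be read against that shift.

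**Figure D1:**
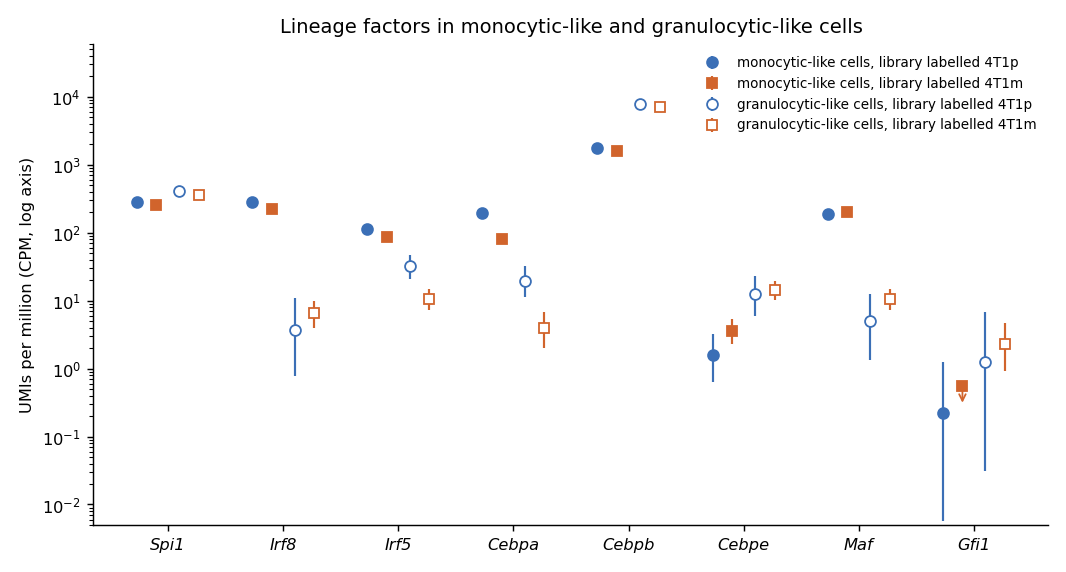
Summed level of each of the 8 listed members in CPM (log axis) in monocytic-like (filled) and granulocytic-like cells (open) of the libraries labelled 4T1p (circles) and 4T1m (squares). Bars are 95% Poisson intervals, and the arrow marks an upper limit where no UMI of Gfi1 was found; Irf8, Irf5, Cebpa and Maf lie higher in monocytic-like cells, Cebpb lies higher in granulocytic-like cells, and Spi1 lies close in all 4 groups.

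Irf8, the factor that favors monocytes over neutrophils, was the member most unequal between the lineages at the main settings. Its level was 287 CPM (1286 UMIs) in monocytic-like cells against 3.71 CPM (3 UMIs) in granulocytic-like cells labelled 4T1p, and 224 CPM (1487 UMIs) against 6.49 CPM (20 UMIs) in those labelled 4T1m. The log2 ratios were 6.27 (interval 4.72 to 8.55) and 5.11 (4.48 to 5.83). Over the other settings they ran from 4.46 to 6.61 and from 2.92 to 5.32. Cells with at least 1000 UMIs were also thinned to that number, and cells with fewer were left out. This kept 550 of 809 monocytic-like cells labelled 4T1p and 693 of 818 labelled 4T1m. Of those, 19.5% and 15.4% had an Irf8 UMI, against 0 of 221 (interval up to 1.66%) and 0.435% of 920 granulocytic-like cells. Unthinned and over all cells of each class, the shares were 45.1% and 54.5% against 1.26% and 1.72%.

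Maf, the macrophage factor, followed the same division with 186 against 4.95 CPM in the library labelled 4T1p and 205 against 10.7 CPM in that labelled 4T1m. The log2 ratios were 5.23 (3.87 to 7.11) and 4.26 (3.76 to 4.81). Cebpa, the factor of granulocyte-monocyte progenitors, stood at 195 against 19.8 CPM and at 80.7 against 3.89 CPM, with log2 ratios of 3.30 (2.59 to 4.12) and 4.37 (3.56 to 5.34). In these tumors Cebpa transcripts were thus found mostly in monocytic-like cells, which held 92.5% of all its UMIs and 67.8% of the UMIs of all genes. Irf5, the inducer of inflammatory cytokines, showed the smallest of the 4 lineage ratios, 112 against 32.1 CPM (log2 1.80, 1.23 to 2.43) and 87.4 against 10.7 CPM (3.03, 2.52 to 3.58).

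Free RNA from lysed cells gives UMIs in cells that do not express a gene, so the low granulocytic-like levels were set beside those of the 9 monocytic markers. Unlike the members, these markers named the lineages and were not left out of the clustering, which can lower their granulocytic-like levels. The comparison therefore describes levels only, and the part of free RNA was not tested. In granulocytic-like cells these markers stood at a median of 3.66% (4T1p) and 3.29% (4T1m) of their monocytic-like level, with Cd68 highest at 50.8% and 49.0%. Irf8 stood at 1.29% (0.27 to 3.79) and 2.89% (1.76 to 4.48), and both intervals included the median marker. Maf stood at 2.66% (0.72 to 6.83), with an interval that included it, and at 5.22% (3.58 to 7.36), above it. Cebpa stood at 10.1%, above the median marker, and at 4.82%, with an interval (2.48 to 8.50) that included it. Irf5 stood at 28.7% and 12.2%, above the median marker in both libraries. Of the 16 Cebpa UMIs in granulocytic-like cells labelled 4T1p, 6 lay in 1 cell, and 10 of 239 cells held any.

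Cebpb was the most abundant member, and the lineages lay apart in the other direction. Monocytic-like cells held 1789 and 1576 CPM and granulocytic-like cells 7975 and 7159 CPM, in the libraries labelled 4T1p and 4T1m. The log2 ratios of -2.16 (-2.20 to -2.11) and -2.18 (-2.22 to -2.15) were nearly the same in the 2 libraries. Among cells with at least 1000 UMIs, thinned to that number, 94.1% and 96.3% of granulocytic-like cells had a Cebpb UMI. Of monocytic-like cells 65.8% and 67.1% had one. UMIs were counted at the 3′ end, 1 per molecule, so levels of different genes were compared without scaling to length.

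Spi1, which encodes PU.1, was shared by both lineages, at 285 against 417 CPM in the library labelled 4T1p and 253 against 358 CPM in that labelled 4T1m. Its log2 ratios, -0.55 (-0.72 to -0.37) and -0.50 (-0.61 to -0.39), leaned to the granulocytic-like side, while the median gene leaned to the other. The remaining members were scarce. Cebpe, the granule factor, had 7 UMIs in monocytic-like and 10 in granulocytic-like cells labelled 4T1p, too few to compare. In those labelled 4T1m it had 24 (3.62 CPM) against 44 (14.3 CPM) (log2 -1.98, -2.76 to -1.23). Of those 44, 33 lay in 24 cells of the immature sub-cluster G10 described below, so the ratio does not describe granulocytic-like cells in general. Gfi1, the repressor of monocyte genes in neutrophil precursors, had 16 UMIs in kept cells, 8 of them in granulocytic-like cells, 5 in B cell-like cells, 2 in T cell-like cells and 1 in a monocytic-like cell. At this depth no Gfi1 difference between libraries was detectable.

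Small B cell-like and T cell-like classes gave the levels outside the 2 lineages. Both also held dendritic cell markers. In the B cell-like class these summed to 493 and 538 CPM (1 and 33 cells), 4T1p first, with 1 and 2 of the 5 listed genes detected. In the T cell-like class they summed to 735 and 841 CPM (7 and 21 cells), with 1 and 3 detected. NK cell markers summed to 334 and 165 CPM in the T cell-like class. Whether dendritic cells were among these cells was not tested, so the levels in these classes are not assigned to lymphocytes alone. Irf8, which also acts in B cells, stood at 489 CPM in the 34 B cell-like cells, 24 of which had a UMI, and at 533 CPM in the 28 T cell-like cells, 9 of which had one. Maf stood at 213 CPM in T cell-like cells. Cebpa and Cebpe had no UMI in either group (upper bounds of 22.3 and 20.7 CPM for each gene), and Spi1 stood at 30.2 and 33.7 CPM, far below both myeloid lineages.

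Within the monocytic-like lineage, 8 sub-clusters were kept. They are called by leading genes: M0 (Rps18-ps3, Gm11808), M1 (Tmem176b, H2-Eb1, C1qb), M2 (Cp, Ifnb1, Cx3cr1), M3 (Ms4a4c, Ly6e, Irf7), M4 (Inhba, Thbs1), M6 (Top2a, proliferating), M7 (Atp6v0d2, Fabp5, Mmp12) and M8 (Cd163, Cbr2). M4 ranked first for the monocyte list with Ly6c2 and Ccr2 and also for the list with Il6 and Thbs1. Depth varied among them, from a median of 981 UMIs per cell in M3 to 14969 in M2. Ptprc was found in 22.2% of cells in M0, 33.7% in M1, 28.6% in M3 and 30.1% in M6. In the other sub-clusters it was found in 53.1% (M7) to 96.9% (M4). The part of depth and of cell quality in the levels by sub-cluster was not tested. Each pair of monocytic-like sub-clusters compared below was the highest and lowest for that gene over both libraries. The intervals do not take this choice into account. The libraries filled them differently, since M4 held 26 cells labelled 4T1p and 166 labelled 4T1m, while M1 held 179 and 82.

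Maf showed the widest spread among these states in the library labelled 4T1p, the scarce Cebpe and Gfi1 left aside. In that labelled 4T1m Cebpb spread more, 4.85-fold from M3 to M1. Maf was highest in M8, the Cd163 sub-cluster of resident-like macrophage genes, at 705 CPM in the library labelled 4T1p and 451 CPM in that labelled 4T1m. M0 stood at 93.8 and 160 CPM, the lowest value in the first library (in the second M6 was lowest, at 132 CPM), with log2 ratios of M8 over M0 of 2.91 (2.46 to 3.38) and 1.49 (0.98 to 2.06). Against all other monocytic-like cells M8 was higher by 2.22 and 1.38 on the log2 scale, with neither interval reaching 0. The next value, 272 CPM in M1 of the library labelled 4T1m, lay well below both. The M8 ratio for both libraries together, 1.67, fell to 0.38 where coarser sub-clusters placed the Cd163 cells in a group of 463.

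Irf8 varied less. It was highest in the proliferating M6, at 344 and 338 CPM, and lowest in M7 in the library labelled 4T1p, at 196 CPM, and in M4 in that labelled 4T1m, at 163 CPM. M4 stood at 339 CPM in the library labelled 4T1p. M6 and M4 thus did not differ beyond counting error in the library labelled 4T1p (log2 0.02, -0.45 to 0.48) and did in that labelled 4T1m (1.05, 0.80 to 1.31). Cebpb was highest in M3, whose leading genes include Ifi44 and Zbp1, at 2816 and 2294 CPM, and lowest in M1, with MHC class II and C1q genes, at 1156 and 473 CPM (log2 1.28, 1.14 to 1.43, and 2.28, 1.96 to 2.60).

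Spi1 was high in M1, at 371 and 411 CPM, though M3 reached 482 CPM in the library labelled 4T1m, and it was lowest in both libraries in M7, the Fabp5 and Mmp12 sub-cluster, at 197 and 187 CPM (log2 0.91, 0.58 to 1.25, and 1.14, 0.73 to 1.54). Irf5 was highest in both libraries in M3, at 154 and 129 CPM, and stood at 94.2 and 69.8 CPM in M8 (log2 0.71, 0.06 to 1.40, and 0.89, 0.10 to 1.63). Cebpa had another order in each library. It was highest in M2 (246 CPM) and lowest in M6 (115 CPM) in that labelled 4T1p, and highest in M3 (124 CPM) and lowest in M0 (43.6 CPM, 9 UMIs) in that labelled 4T1m. It was higher in M2 than in M4 in both, with 246 against 182 CPM and 103 against 57.2 CPM (log2 0.44, 0.01 to 0.89, and 0.84, 0.51 to 1.18).

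**Figure D2:**
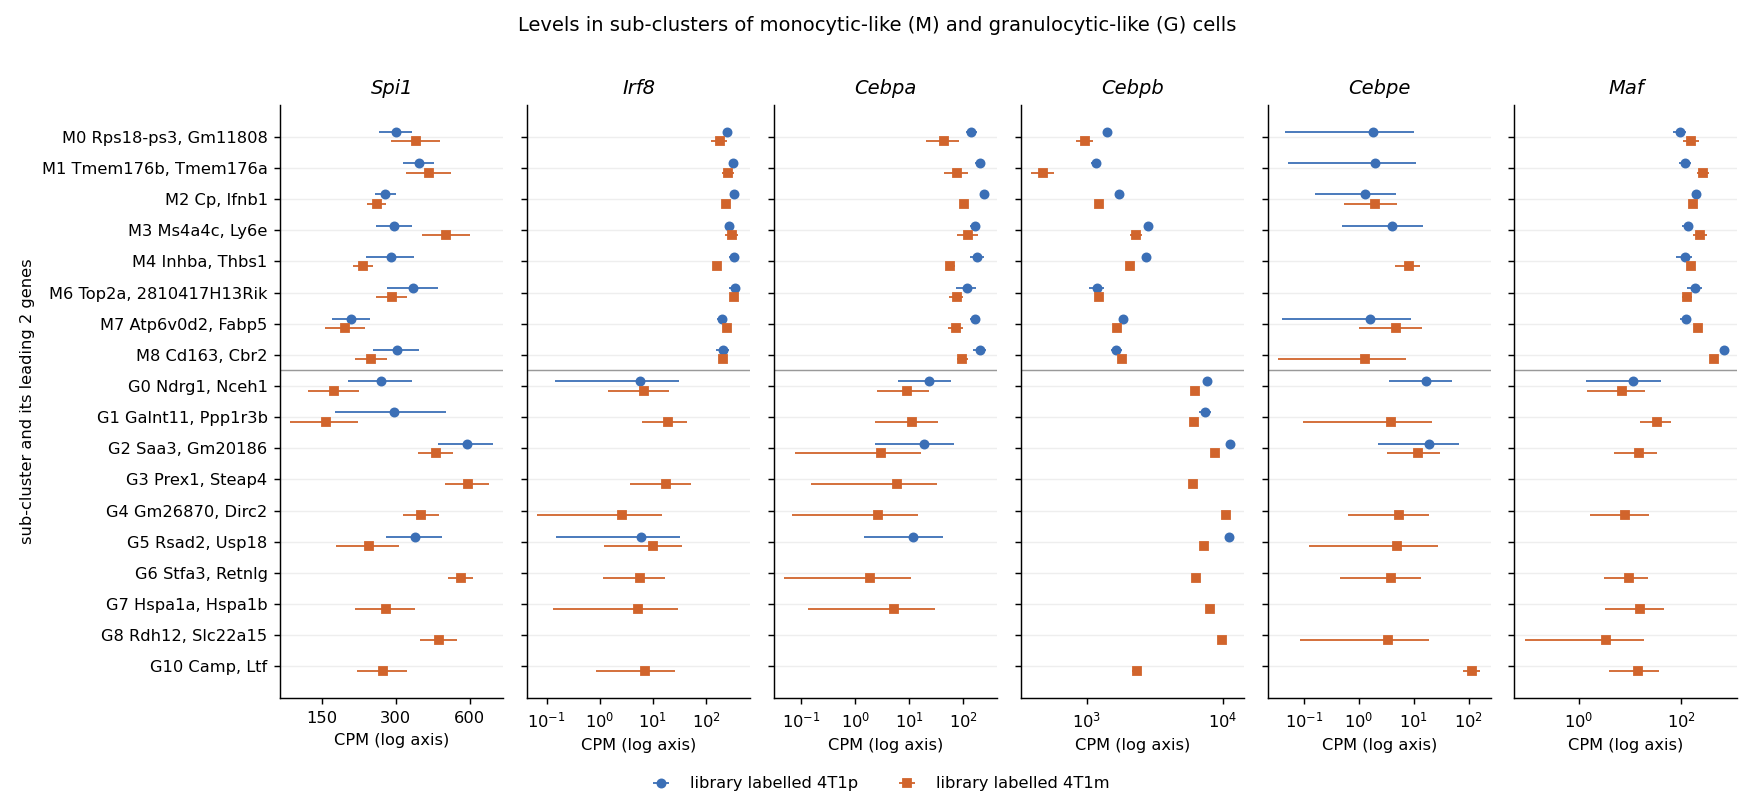
Levels of 6 members in CPM (log axes, a different range for each gene) in the 18 kept sub-clusters, drawn where a library held at least 20 cells of the sub-cluster and at least 1 UMI, with 95% Poisson intervals. Maf is highest in M8, Cebpe in G10 (Camp, Ltf), where Cebpb is lowest among granulocytic-like cells.

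The granulocytic-like cells fell into 10 kept sub-clusters, and G10 is the immature one by its granule genes Camp, Ltf and Ngp. G10 held 31 cells (7 labelled 4T1p and 24 labelled 4T1m) with a median of 14407 UMIs, the deepest of the granulocytic-like cells. G6 (Stfa3, Retnlg, Mmp8) led for the list of 4 genes with Retnlg, Mmp8 and Prok2, G5 (Rsad2, Usp18) for interferon genes, G4 (Gm26870) for inflammatory genes, and G0 (Ndrg1, Ccdc126) for Tnfrsf23 and Ccdc126.

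Within the granulocytic-like class, Cebpe transcripts lay mostly with the granule genes this factor is known to control. G10 held 38 of the 54 Cebpe UMIs of granulocytic-like cells, 70.4% (56.4 to 82.0), though it held 10.3% of all their UMIs. The level there was 117 CPM (33 UMIs) in the library labelled 4T1m and 41.9 CPM (5 UMIs in 7 cells) in that labelled 4T1p, and 17 of the 31 cells had a UMI. Thinned to 1000 UMIs per cell the share was 6.45%, against 0.964% over all 1141 granulocytic-like cells with at least that many UMIs. With only 31 cells in G10, which are also part of that total, the thinned shares do not settle the difference at equal depth. The granulocytic-like sub-cluster with the next most, G2, had 6 UMIs over both libraries.

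Cebpb was lowest where Cebpe was highest. In G10 it stood at 1610 CPM in the library labelled 4T1p and 2324 CPM in that labelled 4T1m, close to the monocytic-like level, against 6536 and 6266 CPM in G6 (log2 -2.02, -2.28 to -1.77, and -1.43, -1.55 to -1.31). The highest was G4, at 10530 CPM in the library labelled 4T1m. Next were G8 (Rdh12, Nfkb2), G2 (Saa3, Icam1) and G5, at 9699, 9326 and 8987 CPM over both libraries. The inflammatory list was not particular to G4. Its score, the mean of each marker's share of cells relative to the highest sub-cluster, was 0.955 in G4 and 0.942 in G5. It was 0.842 in G2, 0.803 in G0 and 0.763 in G8. G4 had 3 cells labelled 4T1p. Granulocytic-like cells were also binned by the share of their UMIs from the immature granule list. The same list picked out G10, so the bins are no separate check. In the 1040 cells with no such UMI, Cebpe had 14 UMIs and Cebpb stood at 8116 CPM. In the 35 cells with over 1%, Cebpe had 38 UMIs (87.3 CPM) and Cebpb stood at 2222 CPM.

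Spi1 differed among mature states as well. It was 551 CPM in G6 and 169 CPM in G0 in the library labelled 4T1m (log2 1.71, 1.34 to 2.10), and 615 and 261 CPM in that labelled 4T1p (1.24, 0.56 to 1.90, 11 cells in G6). Over both libraries it ran from 180 CPM in G1 (Galnt11) to 625 CPM in G3 (Prex1, Steap4), with G10 at 291 CPM between them. Irf8 stayed at or below 19.0 CPM in every granulocytic-like sub-cluster drawn, the immature one included.

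Cebpe also gave UMIs in monocytic-like cells, at 2.95% (1.77 to 4.86) of its G10 level. The granulocytic-like cells outside G10 stood at 4.84% (2.52 to 8.89), and the 2 intervals overlapped. The granule genes Camp, Ngp, Ltf and Lcn2 stood in monocytic-like cells at 0.00491% to 0.0393% of their G10 levels, lower than Cebpe by far. Of those 31 monocytic-like Cebpe UMIs, 16 lay in M4, all in the library labelled 4T1m, at 8.03 CPM. With 26 cells labelled 4T1p in M4 against 166 labelled 4T1m, the lack of a UMI there shows no difference between the libraries.

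The balance of the C/EBP genes does not depend on the total UMIs of a group. Cebpb made up 90.1% and 94.9% of the UMIs of Cebpa, Cebpb and Cebpe in the monocytic-like class (4T1p first), and 99.6% and 99.7% in granulocytic-like cells. Cebpa made up 9.82% (9.21 to 10.5) and 4.86% (4.46 to 5.28) in monocytic-like cells, so there were 9.17 Cebpb UMIs per Cebpa UMI in one library and 19.5 in the other. The share was highest in M1, at 14.8% and 13.8%, and lowest in the library labelled 4T1m in M4, at 2.69% (6.28% in that labelled 4T1p). In G10, Cebpe made up 4.29% and Cebpa 0 of 886 UMIs (interval up to 0.415%).

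**Figure D3:**
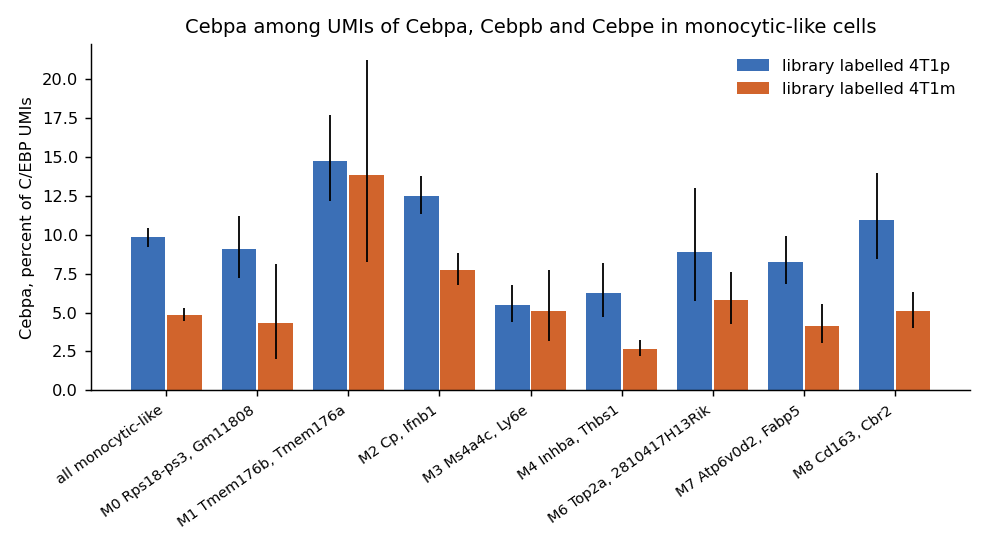
Cebpa as a percent of the summed UMIs of Cebpa, Cebpb and Cebpe in all monocytic-like cells and their 8 kept sub-clusters, with 95% exact binomial intervals. The bar of the library labelled 4T1p is the higher one in all 9 pairs, with overlapping intervals in M0, M1, M3 and M6.

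Between the 2 libraries most members lay within 2-fold, while Cebpa was lower in that labelled 4T1m in both lineages and Irf5 in granulocytic-like cells. The granulocytic-like difference of Cebpa rests on 16 and 12 UMIs. In monocytic-like cells, 2 of 7 members with at least 20 UMIs over the libraries were at least 2-fold apart, Cebpa lower and Cebpe higher in the library labelled 4T1m, beside 11.9% of 10315 genes (8.84% higher and 3.02% lower). In granulocytic-like cells 3 of 7 were, Cebpa and Irf5 lower and Maf higher, beside 13.7% of 6243 genes (7.99% higher and 5.7% lower). The members' median log2 ratios of 4T1m over 4T1p were -0.18 and -0.16, and those of all genes 0.10 and 0.06. Cebpe in monocytic-like cells (1.21, -0.05 to 2.67) and Maf in granulocytic-like cells (1.11, -0.38 to 3.07) had intervals that included 0, and Cebpe was under 2-fold or could not be compared under most other settings.

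Cebpa in monocytic-like cells stood at 195 CPM in the library labelled 4T1p and 80.7 CPM in that labelled 4T1m, 2.42-fold lower (log2 -1.27, -1.43 to -1.12). It was lower in all 8 sub-clusters, from 246 to 103 CPM in M2 and from 182 to 57.2 CPM in M4 to the smallest difference, from 164 to 124 CPM in M3. The interval lay below 0 in 6 of them and included 0 in M3 and M6. Weighting the sub-clusters equally gave -1.13, and the mean of per-cell CPM gave -0.99, just under 2-fold. The share of cells with a Cebpa UMI was 34.5% and 32.6% before thinning and 12.9% and 6.06% after it. In granulocytic-like cells the log2 ratio was -2.35 (-3.56 to -1.17), from 16 and 12 UMIs. Of the 16, 6 lay in 1 cell, which the interval does not take into account. These levels were 10.1% and 4.82% of the monocytic-like ones, where the median monocytic marker stood at 3.66% and 3.29%. The part of free RNA in this difference was not tested. Irf5 in granulocytic-like cells stood at 32.1 CPM (26 UMIs) in the library labelled 4T1p and 10.7 CPM (33 UMIs) in that labelled 4T1m, a log2 ratio of -1.59 (-2.37 to -0.79) that lay between -1.76 and -1.10 over 13 other settings.

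As lineage totals, the members below were within 2-fold in monocytic-like cells. Irf5 (log2 -0.36, -0.53 to -0.18) was lower in the library labelled 4T1m in 8 of 8 sub-clusters, with 3 intervals below 0, though thinning to 1000 UMIs gave 0.21. Irf8 (-0.36, -0.46 to -0.25) was lower in 6 of 8, with the interval below 0 in M2 (-0.45) and M4 (-1.06). The totals of Cebpb were slightly lower in both lineages, at -0.18 (-0.22 to -0.14) and -0.16 (-0.20 to -0.12). Among monocytic-like sub-clusters Cebpb was lower in 6 of 8, all 6 with intervals below 0, and ran from -1.29 to 0.13. Spi1 totals were slightly lower too, at -0.17 (-0.28 to -0.07) and -0.22 (-0.40 to -0.04). The monocytic-like value of Spi1 was 0.037 with sub-clusters weighted equally. Maf (0.14, 0.01 to 0.27) turned to -0.10 under median-ratio size factors, so its lineage total has no direction here. By sub-cluster Maf was higher in the library labelled 4T1m in 5 of 8, with 4 intervals above 0 and 1 below.

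In granulocytic-like cells, the 4 sub-clusters with at least 20 cells in both libraries were G0, G1, G2 and G5. Cebpb was lower in the library labelled 4T1m in all 4, from -0.63 in G5 to -0.26 in G1, with every interval below 0. Spi1 was lower in all 4 as well, from -0.92 in G1 to -0.41 in G2, with the interval below 0 in G0 and G5. The 2 libraries hold different mixtures of these sub-clusters, and the lineage totals are smaller in size than the values within any of the 4.

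**Figure D4:**
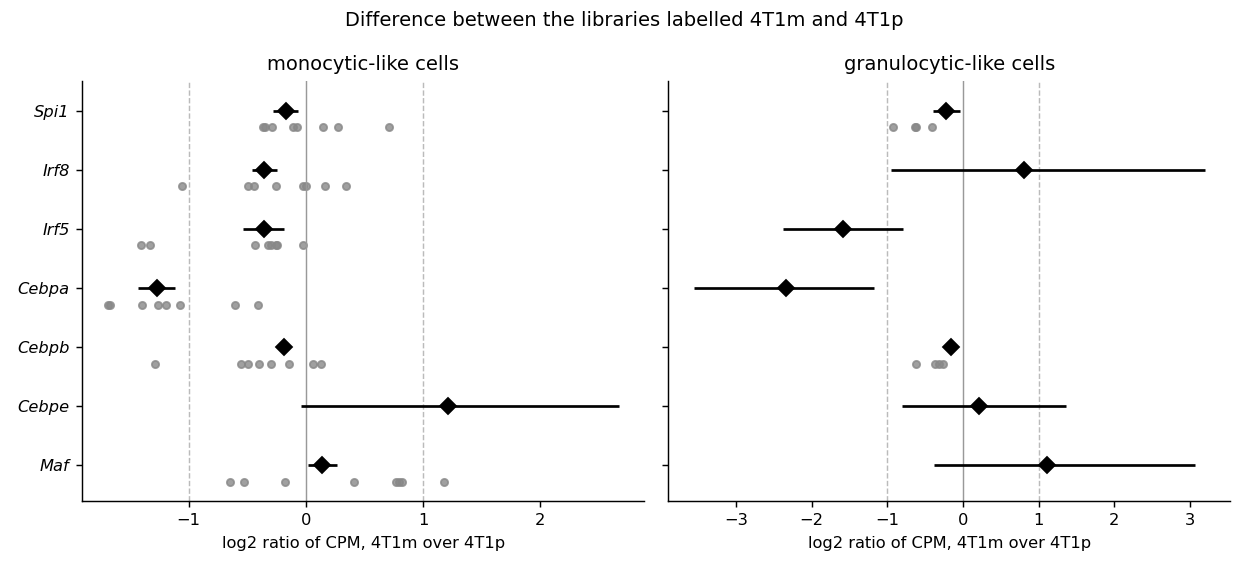
Log2 ratio of CPM in the library labelled 4T1m over that labelled 4T1p in monocytic-like (left) and granulocytic-like cells (right). Diamonds are lineage totals with 95% intervals, gray points are sub-clusters with at least 20 cells in each library and at least 20 UMIs, dashed lines mark 2-fold, and all 8 gray points of Cebpa in monocytic-like cells lie below 0.

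Among 54 other transcription factors, 46 could be compared between the lineages in both libraries, of which 14 were at least 2-fold higher in monocytic-like and 7 in granulocytic-like cells, beside the 41.6% and 8.11% of all genes. The medians over those tested, 0.27 in the library labelled 4T1p and 0.54 in that labelled 4T1m, were below those of all genes. Klf4, a factor of monocyte differentiation, stood at 493 against 17.3 CPM in the library labelled 4T1p and 292 against 19.8 CPM in that labelled 4T1m (log2 4.83 and 3.88). On the granulocytic-like side were Nfe2 (log2 -3.56 and -3.71), Ddit3, the C/EBP relative CHOP (-2.15 and -2.73), and Irf1 (-2.07 and -1.36). Of the other IRF and C/EBP genes, Irf7 (0.30 and 0.53) and Cebpz (-0.68 and -0.32) lay under 2-fold, and Cebpg stood at 1.06 and 0.70.

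Between the libraries, 4 of 48 other factors in monocytic-like cells were at least 2-fold higher in that labelled 4T1m (Irf4, Spic, Ets1, Zeb2) and 3 lower (Irf7, Batf3, Lyl1), beside 8.84% and 3.02% of all genes. Irf7, the interferon-induced relative of Irf8 and Irf5, stood at 279 CPM in the library labelled 4T1p and 87.0 CPM in that labelled 4T1m (log2 -1.68, -1.83 to -1.54). In granulocytic-like cells it stood at 226 and 60.3 CPM (-1.91, -2.21 to -1.60). The interferon sub-cluster G5 held 53 of 239 granulocytic-like cells labelled 4T1p and 58 of 990 labelled 4T1m. M3 held 128 and 71 cells. The part of these mixtures in the Irf7 differences was not tested. Of 39 other factors compared in granulocytic-like cells, 1 was at least 2-fold higher in the library labelled 4T1m (Tcf4). Lower were 3 (Irf1, Irf3, Irf7), beside 7.99% higher and 5.7% lower of all genes. Irf4 was scarce in monocytic-like cells, with 13 and 53 UMIs (log2 1.46, 0.57 to 2.46).

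The genes placed downstream of the members in textbook accounts took part in the clustering, so their counts only describe the classes. Of 23, 20 could be compared in both libraries. Among them, 9 were at least 2-fold higher in monocytic-like cells, a count near the 41.6% of all genes. At least 2-fold lower were 7, beside 8.11% of all genes. Csf1r, the M-CSF receptor, stood at 529 against 38.3 CPM and 485 against 34.4 CPM, and Csf3r, the G-CSF receptor, at 44.1 against 847 and 29.9 against 904 CPM. The primary granule genes Mpo, Elane and Ctsg, which mark the earliest neutrophil precursors, had at most 2 UMIs in any of the 4 groups. Prtn3, another primary granule protease, was found instead on the monocytic-like side, with 98 UMIs (21.9 CPM) against 2 (2.47 CPM) in the library labelled 4T1p and 234 UMIs (35.3 CPM) against 20 (6.49 CPM) in that labelled 4T1m (log2 3.14, 1.25 to 6.21, and 2.44, 1.78 to 3.18). In monocytic-like cells Il10, a target of c-Maf, stood at 105 and 232 CPM (log2 1.14, 0.99 to 1.29) and Il6 at 56.6 and 152 CPM (1.43, 1.23 to 1.63), 4T1p first.

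**Figure D5:**
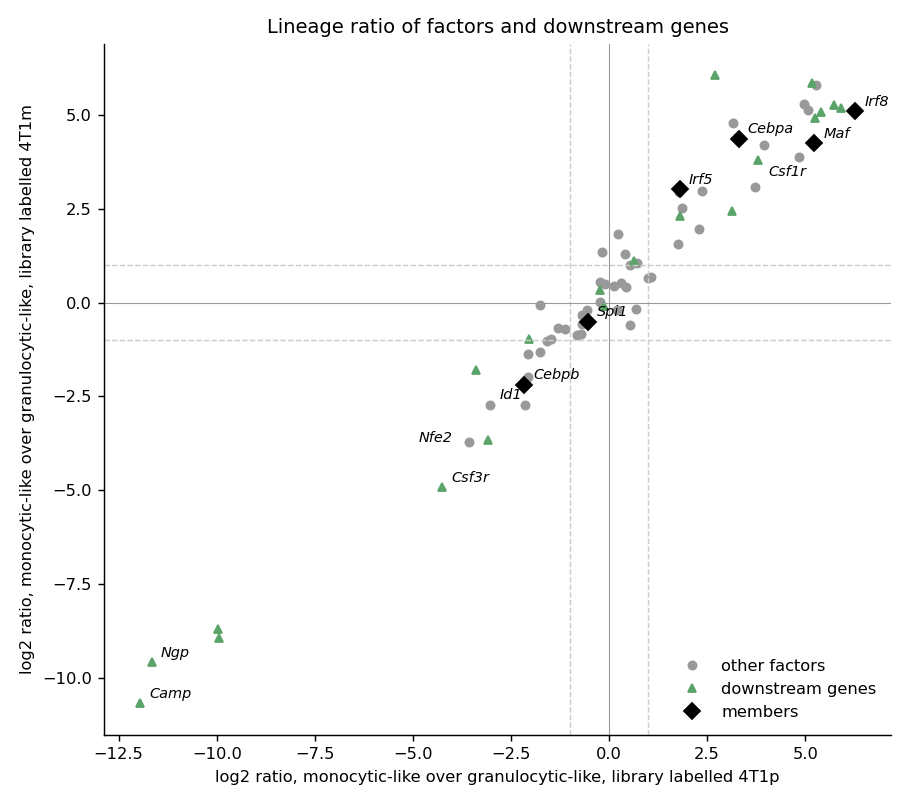
Log2 ratio of monocytic-like over granulocytic-like CPM in the library labelled 4T1p (horizontal axis) and in that labelled 4T1m (vertical axis). Members are black, other factors gray and downstream genes green. Genes are drawn with at least 20 UMIs over the 2 lineages in each library and at least 1 UMI in each group. Dashed lines mark 2-fold, and Irf8, Maf, Cebpa and Irf5 lie in the upper right, Cebpb in the lower left.

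The genes whose levels were most like each member's over 30 groups (sub-clusters by library) were listed among 6418 genes, with Pearson's r as a description only, since the groups share libraries and cells of 2 lineages. Irf8 was most like Itgb5 (0.973), Dpysl2 and Trem2, Cebpa like Trem2 (0.961) and Ctsh, and Maf like Sdc3 (0.953), Scpep1 and Stab1. Irf5 was most like Fcgr1 (0.934) and Cebpa (0.923). Cebpb was most like Ube2b (0.942), Pim1 and Slc16a3, and Spi1 had the least like partner of these, Lst1 (0.815).

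In the annotation of mm10 (GRCm38) the members lie on 6 chromosomes, and 4 of them overlap a gene on the opposite strand that had UMIs: Cebpb overlaps Tmem189 (3880 UMIs), Irf5 overlaps Tnpo3 (756 UMIs), Maf overlaps Gm15655 (16 UMIs) and Cebpa overlaps Gm45091 (1 UMI). The 3′ kit keeps strand. Cebpb is a single exon at chr2:167688915-167690418, and Cebpa lies at chr7:35119293-35121928, both on the plus strand.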

How the data were processed

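The deposited files were filtered matrices of UMI counts per gene and barcode, 1 library per tumor type. Per the labels, the authors aligned the reads to mm10 with Cell Ranger (matrix header software 3.1.0), and the counts are not normalized. The kit was 10x 3′ v3. The members and gene lists were chosen with earlier results of these data known. A few named items are not reported here.

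After selection of 3000 variable genes, 11 principal components and 20 neighbors, cells were clustered with leidenalg 0.10.2 at resolution 0.8 in scanpy 1.11.5 (Python 3.11.15, scipy 1.17.1), first all cells (15 clusters) and then each lineage, without the members, the other factors and rRNA genes. Clusters were named from marker lists at a relative score of at least 0.3, a limit set after seeing the data. Sub-clusters led by markers of the other lineage (23 and 47 cells) and 1 of low depth (190 cells) were left out, as were 42 cells that matched no list. No doublets were removed, except in an alternative with Scrublet scores.

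UMIs were summed per class and library and given as CPM with exact Poisson intervals. Log2 ratios took their intervals from the exact binomial share of the UMIs of the 2 groups, which together needed at least 20. A gene was called at 2-fold. No test was run, since there was 1 library per tumor type. The ratio calculation was tested on simulated data. Genes were named by a rule: the members, other factors at least 2-fold apart or of a member's family, listed downstream genes, and up to 3 most like genes by Pearson's r of log2(CPM + 10) among genes with at least 200 UMIs.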

Additional observations from a re-analysis of the deposited data

Results flagged for a closer look

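For 2 members the monocytic-like sub-clusters differed between the libraries in opposite directions, with intervals that excluded 0 on both sides. Maf was higher in the library labelled 4T1m in M1, the sub-cluster with C1q genes (log2 ratio 1.18, 0.64 to 1.72), and lower in M8, the Cd163 sub-cluster (-0.65, -0.90 to -0.39). Spi1 was higher in M3 (0.71, 0.30 to 1.11) and lower in M4 (-0.37, -0.72 to -0.01). The intervals cover counting error within 1 library per tumor type, and the differences between sub-clusters were not tested. The median depth per cell was 1330 UMIs in M1 and 7188 in M8, and 981 in M3 and 10926 in M4.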

How the results depend on the processing

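The counts of members at least 2-fold higher (4) and lower (1) in monocytic-like cells were the same under all 13 alternatives run for them. Over 349 ratios of single members under 14 settings, 298 kept their value within counting error, 48 moved further and 3 whose interval excluded 0 changed sign. Those 3 were monocytic-like ratios of 4T1m over 4T1p: Maf at -0.10 under median-ratio size factors, Irf5 at 0.21 after thinning to 1000 UMIs, and Spi1 at 0.037 with sub-clusters weighted equally. Of granulocytic-like library ratios whose interval included 0, Irf8 ran from -0.87 to 2.06 and Cebpe from -0.68 to 0.56. Cebpa in monocytic-like cells lay between -1.51 and -0.99. The count of members 2-fold apart between libraries in monocytic-like cells was 1 in place of 2 with cells lacking Ptprc left out, the highest Scrublet scores left out, a higher minimum of detected genes, clusters at resolution 1.2, lineage from marker sums, median-ratio size factors, mean per-cell CPM, thinning, mixed and low-depth sub-clusters kept in, or equal weights. The granulocytic-like count was 0 after thinning and 1 with equal weights in place of 3. A member was counted only with at least 20 UMIs under the setting. A lower count can therefore reflect too few UMIs and need not mean a ratio under 2-fold. Maf in the Cd163 sub-cluster over other monocytic-like cells was 0.38 with sub-clusters at resolution 0.4 (463 cells) and 1.84 at 1.2 (114 cells). Median-ratio size factors shifted all lineage ratios by -0.10 (4T1p) and -0.29 (4T1m) and all monocytic-like library ratios by -0.24. The settings with at least 1000 UMIs, mixed sub-clusters kept in and equal weights were chosen after seeing the data. No paired analysis was possible because each tumor type has 1 library. Depth limits Cebpe and Gfi1 and every member's granulocytic-like level except those of Spi1 and Cebpb.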
